A study of Mus musculus with 3 samples.

Results

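The hair shaft keratins were followed in single cells of mouse back skin while hair follicles form. The group holds 10 listed genes, of which 8 were analysed among the 19165 genes measured: the type I keratins *Krt31*, *Krt32*, *Krt33a*, *Krt34*, *Krt35* and *Krt36*, and the type II keratins *Krt82* and *Krt86*. *Krt81* and 1 further type II keratin were not analysed here. Skin came from pooled male C57BL/6 mice with no genetic change or drug, at embryonic days E13.5 and E16.5 and on the day of birth (P0), with 1 droplet library per stage. The embryonic skin was dissociated with trypsin and the P0 skin with collagenase IV, so stage, enzyme and library cannot be told apart. No library was repeated, so no statistical test was run, and all intervals given are 95%. The limit that a count of 0 allows is given as 3 counts of the total. Intervals and limits cover counting error only.

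Keratins form filaments from pairs of a type I and a type II chain. In the growing follicle, proliferating matrix cells at the base give rise to the hair shaft (medulla, cortex and cuticle) and to the inner root sheath (IRS) that encases it, and the shaft cells switch from epidermal to hair keratins as they stop dividing and harden. *Krt35* is known as the first type I hair keratin to appear above the matrix, *Krt32* as a keratin of the shaft cuticle, *Krt31*, *Krt33a*, *Krt34* and *Krt36* as keratins of the cortex, and *Krt71* as a keratin of the IRS.

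The libraries held 5962, 5208 and 5065 cells at E13.5, E16.5 and P0, with medians of 7066.5, 11021 and 6797 unique molecular identifiers (UMIs, each marking a captured transcript) per cell. The libraries shared 32 to 44 cell barcodes pairwise. Clusters of each library were named from marker genes, and a cluster named in this way is called epithelial-like, dermal-like and so on. The 1499 epithelial-like cells at P0 had a median of 9301 UMIs and were divided into 398 basal-like, 124 suprabasal-like, 175 upper follicle-like, 413 outer root sheath-like, 261 matrix-like and 128 IRS-like cells. No hair keratin was used for clustering. The matrix-like cells formed a pair of sub-clusters led by *Shh* and *Sp5*, and the IRS-like sub-cluster was led by *Krt28*, *Msx1*, *Krt35*, *Krt25* and *Krt71*, so it held a shaft keratin among the leading genes of a sheath name. The scRNA-seq doublet caller marked 1 of the P0 epithelial-like cells.

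The 6 type I genes lay within 94.4 kilobases on chr11:100011195-100105626 and the 2 type II genes within 77.2 kilobases on chr15:101473478-101550667 (GRCm38, GENCODE vM21). For each gene, 98-base words were read from the last 500 bases of its annotated transcripts, where 3' libraries place their reads. In none of the 8 genes did such a word occur in a transcript of another gene, so reads at the annotated ends can be assigned to a single member. Upstream sequence from RefSeq (GRCm38.p6) was matched for 5 of the 8 genes. The 250 bases before the start are shown for 4 type I genes of this cluster because the cells that held these genes differed although the genes lie close together. Capitals mark CTTTGA, the core letters bound by the LEF/TCF factors of Wnt signalling, and TATAAA, the TATA box; both strands were searched and the motifs did not overlap.
Krt31 (chr11:100050552-100050801, minus strand): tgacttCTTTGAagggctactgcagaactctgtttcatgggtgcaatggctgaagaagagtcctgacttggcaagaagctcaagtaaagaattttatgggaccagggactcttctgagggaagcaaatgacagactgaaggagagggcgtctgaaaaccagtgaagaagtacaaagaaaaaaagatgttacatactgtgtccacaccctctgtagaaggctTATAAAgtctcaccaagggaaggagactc
Krt32 (chr11:100088270-100088519, minus strand): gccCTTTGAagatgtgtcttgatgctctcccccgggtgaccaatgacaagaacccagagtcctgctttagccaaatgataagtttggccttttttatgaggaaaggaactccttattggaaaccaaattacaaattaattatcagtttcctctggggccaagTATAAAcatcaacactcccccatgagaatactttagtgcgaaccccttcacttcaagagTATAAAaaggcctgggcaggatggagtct
Krt34 (chr11:100041555-100041804, minus strand): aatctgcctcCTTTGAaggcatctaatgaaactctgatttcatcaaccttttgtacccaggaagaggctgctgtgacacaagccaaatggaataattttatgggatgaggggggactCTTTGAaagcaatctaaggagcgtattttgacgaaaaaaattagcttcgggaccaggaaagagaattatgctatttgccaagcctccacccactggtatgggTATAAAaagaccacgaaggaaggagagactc
Krt36 (chr11:100105627-100105876, minus strand): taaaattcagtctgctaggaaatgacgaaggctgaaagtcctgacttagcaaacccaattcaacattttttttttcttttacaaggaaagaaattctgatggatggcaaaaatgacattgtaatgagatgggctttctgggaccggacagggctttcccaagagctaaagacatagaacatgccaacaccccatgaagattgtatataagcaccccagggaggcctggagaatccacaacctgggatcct
CTTTGA was found before *Krt31*, *Krt32* and *Krt34*, at 244, 247 and 240 bases from the start, and once more before *Krt34* at 133 bases. TATAAA stood at 29, 29 and 31 bases before the start of the same 3 genes, and once more before *Krt32* at 88 bases. Neither motif was found before *Krt36* or *Krt82*. Of 32851 upstream windows of this length, 13.8% held CTTTGA, 12.4% held TATAAA and 2.13% held both. These matches are letters only, and no binding was measured here. The same motifs stood before *Krt32* and *Krt34*, whose cells differed as described next.

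None of the 8 hair keratins was detected at E13.5, they were rare at E16.5, and they were widespread in epithelial-like cells at P0. At E13.5, 0 of all 5962 cells held a UMI of any member, which allows a share of up to 0.0503%. The 495 epithelial-like cells of that stage are a mixed group, since several of their sub-clusters were led by genes of other cell types, such as *C1qb*, globins, *Cpa3*, *Tubb3*, *Myog* and *Twist2*, so no limit is given for them. At E16.5, 38 of 951 epithelial-like cells (4.0%, interval 2.84 to 5.44) held one. At P0, 381 of 1499 did (25.4%, interval 23.2 to 27.7). The E16.5 cells included a sub-cluster of 74 led by *Meg3*, *Col3a1* and *Twist2*. The intervals of E16.5 and P0 did not overlap. With every cell thinned to 3500 UMIs, the shares were 1.05% (interval 0.505 to 1.93) at E16.5 and 11.3% (interval 9.72 to 13) at P0, with 1 cell of E16.5 left out for too few UMIs. As the level in a cell type not known for hair keratins, 7 of 267 endothelial-like cells at P0 (2.62%, median depth 9713) also held a member, and after thinning 1 of 267 (0.375%) did.

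**Figure D1:**
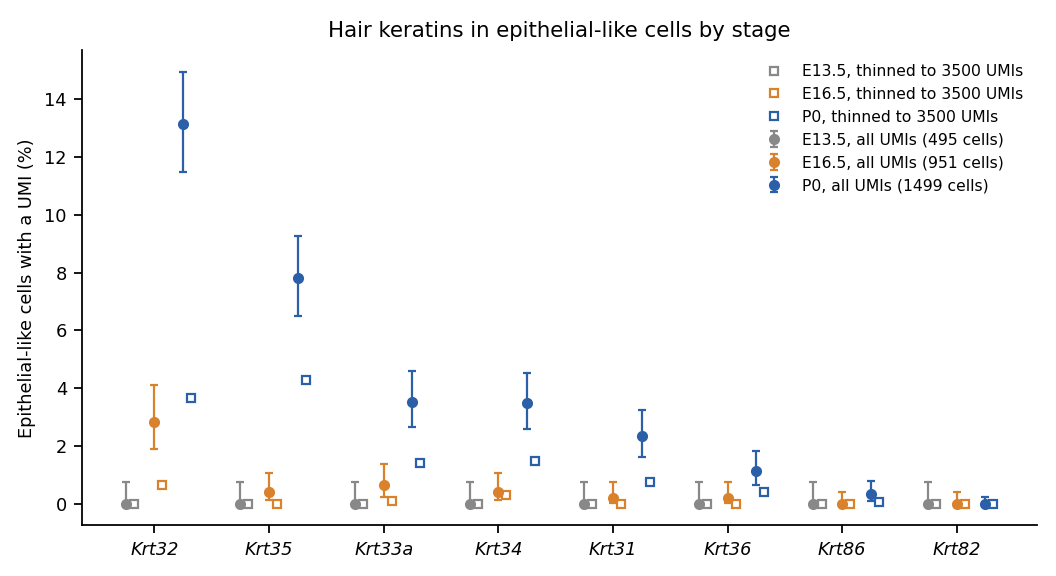
Share of epithelial-like cells (%, vertical axis) with at least 1 UMI of each hair keratin (horizontal axis) at E13.5, E16.5 and P0, with all UMIs (filled points, exact 95% binomial intervals) and with cells thinned to 3500 UMIs (open squares). *Krt32* reached 13.1% and *Krt35* 7.81% at P0, every gene was at 0 at E13.5, and after thinning *Krt35* (4.27%) stood above *Krt32* (3.67%).

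*Krt32* was found in the most P0 cells and *Krt35* gave the most UMIs. *Krt32* was held by 197 epithelial-like cells (13.1%, interval 11.5 to 14.96) and *Krt35* by 117 (7.81%, interval 6.50 to 9.28), and these intervals did not overlap. *Krt33a* followed with 53 cells (3.54%), *Krt34* with 52 (3.47%), *Krt31* with 35 (2.33%), *Krt36* with 17 (1.13%) and *Krt86* with 5 (0.334%). From *Krt33a* downward the interval of each gene overlapped that of the next, so neighbours in this lower order are not resolved, while *Krt33a* and *Krt34* lay clear of *Krt36* and *Krt86*. *Krt82*, a cuticle keratin, was in 0 of 1499 epithelial-like cells (up to 0.200%), and its 2 UMIs lay in 2 dermal-like cells.

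The order of the first pair depended on the depth of the cells. The 54 cells with at least 2 *Krt32* UMIs had a median of 25828.5 UMIs, against 11231 for the 59 cells with at least 2 *Krt35* UMIs and 8728 for the 1118 cells without any member. At the same depth of 3500 UMIs, *Krt35* was in 64 cells (4.27%) and *Krt32* in 55 (3.67%), with overlapping intervals. With 2 UMIs required, *Krt35* was in 59 cells and *Krt32* in 54, also with overlapping intervals. Which of them was seen in more cells therefore cannot be said from this library without naming the depth. An order by share in 1 library is an order of detection and not of time.

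The spread over cells separated the genes more clearly than the shares. *Krt35* gave 670 UMIs and was uneven: 58 of its 117 cells held 1 UMI, 16 cells held 10 or more and together 434 UMIs, and the highest cells held 103 and 93. *Krt32* gave 314 UMIs and was thinly spread, with 1 UMI in 143 of its 197 cells and at most 11 in a cell. *Krt33a* gave 70 UMIs, *Krt34* 67, *Krt31* 36, *Krt36* 18 and *Krt86* 5, with at most 6 in a cell. *Krt35* was thus the only member with cells above 11 UMIs among the P0 epithelial-like cells.

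The members were found in different epithelial sub-classes. *Krt35* lay in the IRS-like and matrix-like cells, *Krt34* and *Krt36* mainly and *Krt33a* in largest part in matrix-like cells, and *Krt32* mainly in suprabasal-like, upper follicle-like and basal-like cells outside the matrix. *Krt35* reached 296 CPM (UMIs scaled to a common total for each group of cells) in IRS-like cells (425 UMIs in 30 of 128 cells) and 52.7 CPM in matrix-like cells (165 UMIs in 48 of 261 cells). These sub-classes held 63.4% and 24.6% of its UMIs. Without the 2 highest cells, IRS-like cells still held 229 UMIs at 164 CPM, or 48.3% of the remaining 474. In basal-like cells 2.01% held *Krt35* and in suprabasal-like cells 0.806%, at or below the 2.25% of endothelial-like cells, so these shares are not read as expression.

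*Krt34* was the member most concentrated in the matrix, with 48 of its 67 UMIs (71.6%) in 36 of 261 matrix-like cells (13.8%, interval 9.85 to 18.6). In IRS-like cells 3.13% held it and in basal-like cells 0.251%. *Krt33a* had 47.1% of its UMIs in matrix-like cells and *Krt36* 55.6% (10 of 18 UMIs). *Krt33b*, the closest neighbour of *Krt33a* on the chromosome and another cortex keratin, had 18 of 21 UMIs (85.7%) there. Each of *Krt33a*, *Krt34* and *Krt36* was absent from all 267 endothelial-like cells, which allows a share of up to 1.12%. *Krt34*, *Krt36* and *Krt33b* thus had most of their UMIs in the *Shh* and *Sp5* sub-clusters and *Krt33a* its largest part, whereas *Krt31* had 14 of 36 UMIs (38.9%) in upper follicle-like cells and 7 in matrix-like cells.

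*Krt32* was held by 45 of 124 suprabasal-like cells (36.3%, interval 27.8 to 45.4), 36 of 175 upper follicle-like cells (20.6%), 58 of 398 basal-like cells (14.6%), 18 of 128 IRS-like cells (14.1%) and 19 of 261 matrix-like cells (7.28%, interval 4.44 to 11.1). The intervals of suprabasal-like and matrix-like cells did not overlap. After thinning, 21 of 124 suprabasal-like cells (16.9%) and 4 of 261 matrix-like cells (1.53%) held it, with intervals that did not overlap. IRS-like cells (6 of 128, 4.69%), upper follicle-like cells (4.0%) and basal-like cells (3.52%) lay between. Their intervals overlapped that of matrix-like cells, so at this depth these sub-classes are not told apart. Endothelial-like cells held it in 0.375% before thinning.

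**Figure D2:**
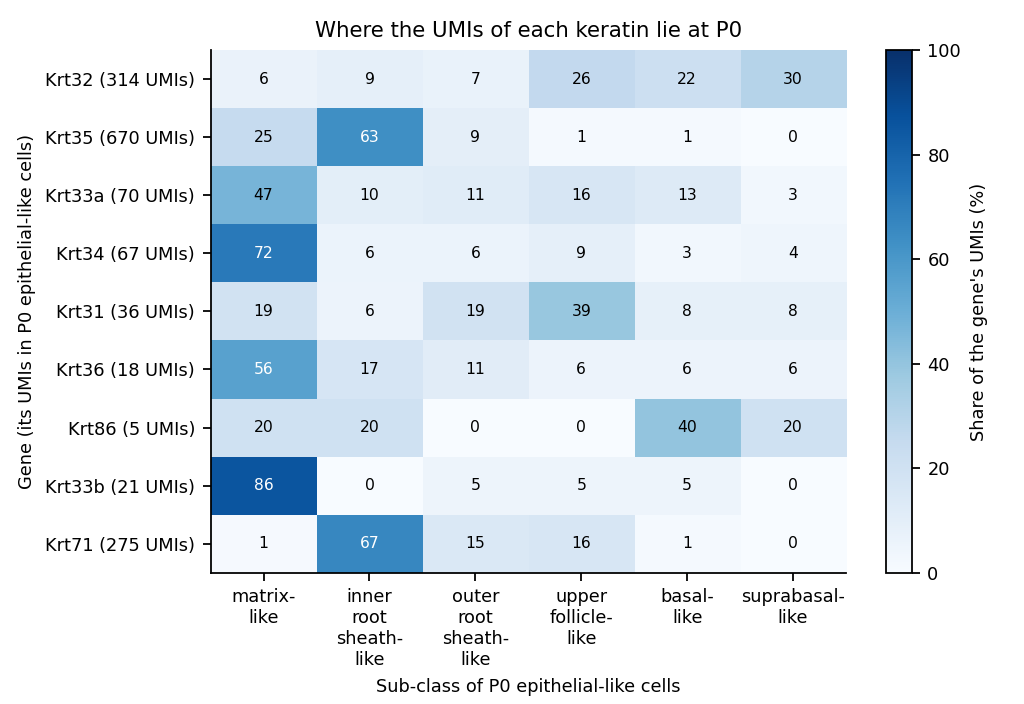
Share of the UMIs of each gene (%, colour and printed value) found in each sub-class of P0 epithelial-like cells; the number of UMIs stands beside each gene. The matrix-like column holds most of *Krt34* (71.6%) and *Krt33b* (85.7%), the IRS-like column most of *Krt35* (63.4%) and *Krt71*, and *Krt32* is spread over the upper follicle-like, basal-like and suprabasal-like columns, with *Krt86* resting on 5 UMIs and *Krt71* among the genes from which the IRS-like cells were named.

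Cells seldom held more than 1 member. Of the 381 member cells at P0, 307 held a single member, 53 held 2 and 21 held 3, so 74 (19.4%, interval 15.6 to 23.8) held 2 or more. *Krt35* was the only member in 88 of its 117 cells (75.2%) and *Krt32* in 145 of its 197 (73.6%), while *Krt33a* was alone in 20 of 53 (37.7%). *Krt35* and *Krt32* shared 17 cells, which is 14.5% of the *Krt35* cells and 8.63% of the *Krt32* cells, beside 13.1% and 7.81% of all epithelial-like cells. With 1 UMI required, each was therefore about as frequent in the cells of the other as in all epithelial-like cells. Across the 1499 cells the levels had a Pearson r of -0.00, given as a description only since all points share a library.

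Among the rarer genes, *Krt33a* and *Krt34* shared 10 cells, 18.9% and 19.2% of each, against 3.54% and 3.47% of all cells. *Krt34* and *Krt36* shared 5 cells, 9.62% of the *Krt34* cells and 29.4% of the *Krt36* cells. *Krt31* shared 15 of its 35 cells (42.9%, interval 26.3 to 60.6) with *Krt32* and 3 with *Krt34*. In these sparse counts, deeper cells show more genes, and this was not separated from co-expression. With at least 2 UMIs of each gene required, *Krt33a* and *Krt34* shared 0 cells (of 9 and 12), and *Krt35* and *Krt32* shared 5.

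**Figure D3:**
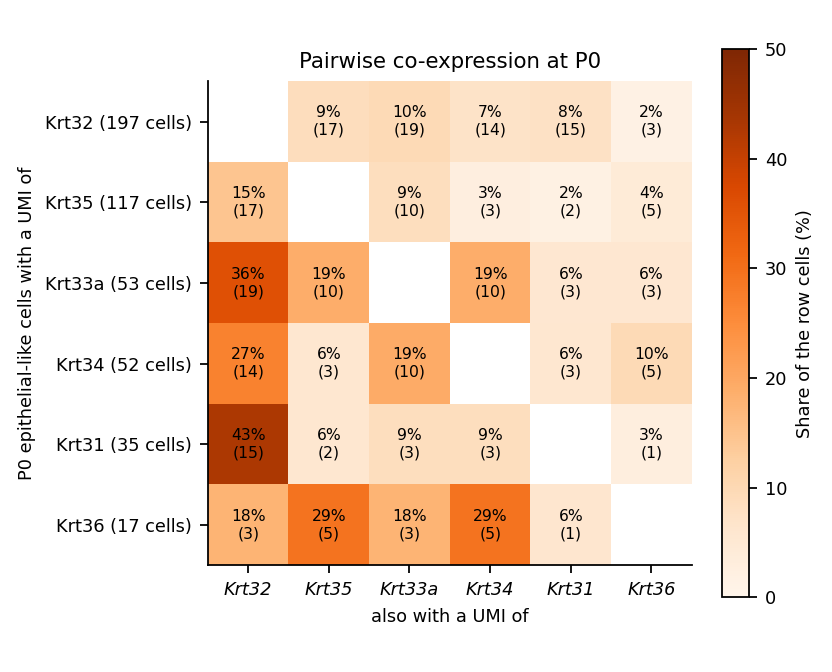
Pairwise co-expression at P0: for the cells with a UMI of the gene in the row, the share (%) that also held the gene in the column, with the number of cells with both in brackets and the cells with each gene in the row labels. *Krt31* cells held *Krt32* in 42.9%, *Krt35* cells held *Krt32* in 14.5%, and *Krt33a* and *Krt34* each held the other in 18.9% and 19.2%.

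*Krt35* and *Krt71* were high in different cells, most of them in the same IRS-like sub-cluster. Among the high cells outside it, a matrix-like cell held 15 and an outer root sheath-like cell 18 *Krt35* UMIs. An upper follicle-like cell held 24 *Krt71* UMIs. *Krt71* was in 69 of the 1499 cells, and 20 of the 381 member cells held it (5.25%, interval 3.24 to 7.99), against 4.38% of the cells without a member. Of the *Krt71* cells, 29.0% held a member. *Krt35* and *Krt71* shared 6 cells, none with 2 or more UMIs of both: 0 of 59 cells with at least 2 *Krt35* UMIs also held 2 *Krt71* UMIs. None of the 16 cells with 10 or more *Krt35* UMIs held a *Krt71* UMI, and none of the 5 cells with 10 or more *Krt71* UMIs held a *Krt35* UMI. Of the other cells 4.65% held *Krt71*, so at these numbers its absence from 16 cells is within counting error.

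Within the 128 IRS-like cells, 23 held at least 2 *Krt35* UMIs and no *Krt71*, 7 held at least 2 *Krt71* UMIs and no *Krt35*, 88 held neither, 1 held 1 UMI of each, and the remaining cells held 1 UMI of a single gene of the pair. The levels of *Krt35* and *Krt71* in these groups are set by that choice and are not compared. *Krt25*, another IRS keratin, followed *Krt71*, with 18.4 CPM in the *Krt35* cells and 644 CPM in the *Krt71* cells. *Krt28*, also known from the IRS, was in both, at 574 and 1327 CPM, and in the cells with neither at 505 CPM.

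The shaft regulators were distributed the opposite way in these cells. *Hoxc13*, a homeobox gene required for hair keratin expression, was at 181 CPM (interval 138 to 234) in the 23 *Krt35* cells, with UMIs in 17 of them, and at 6.32 CPM (interval 0.160 to 35.2) in the 7 *Krt71* cells. *Shh*, the hedgehog ligand of the matrix, stood at 144 and 19.0 CPM, and *Bmp4*, a ligand that acts in shaft differentiation, at 147 and 25.3 CPM. *Mt4*, a metallothionein of stratified epithelia, stood at 402 and 6.32 CPM, and *Odc1*, the rate-limiting enzyme of polyamine synthesis, at 374 and 25.3 CPM. *Mt4* and *Odc1* are not in the list of regulators. They were named because their levels went most with *Krt35* over the P0 epithelial-like cells, so their height here was in part set by that choice. For *Hoxc13*, *Shh*, *Bmp4*, *Mt4* and *Odc1* alike, the interval of the *Krt35* cells lay above that of the *Krt71* cells. *Msx1* (322 and 139 CPM) did the same. *Gata3*, a regulator of IRS differentiation, was lower in the *Krt35* cells, at 224 CPM (interval 176 to 282) against 480 CPM (interval 378 to 601), and *Msx2* and *Dlx3* had overlapping intervals. The 7 *Krt71* cells are few, and of their 179 *Krt71* UMIs, 69 lay in 1 cell and 64 in another. These cells were deep, with 52107 and 44846 UMIs in all, so the CPM values of the *Krt71* cells rest mostly on them. They held 28 and 17 of the 76 *Gata3* UMIs, and another cell held 23, though *Gata3* was in 6 of the 7 cells.

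**Figure D4:**
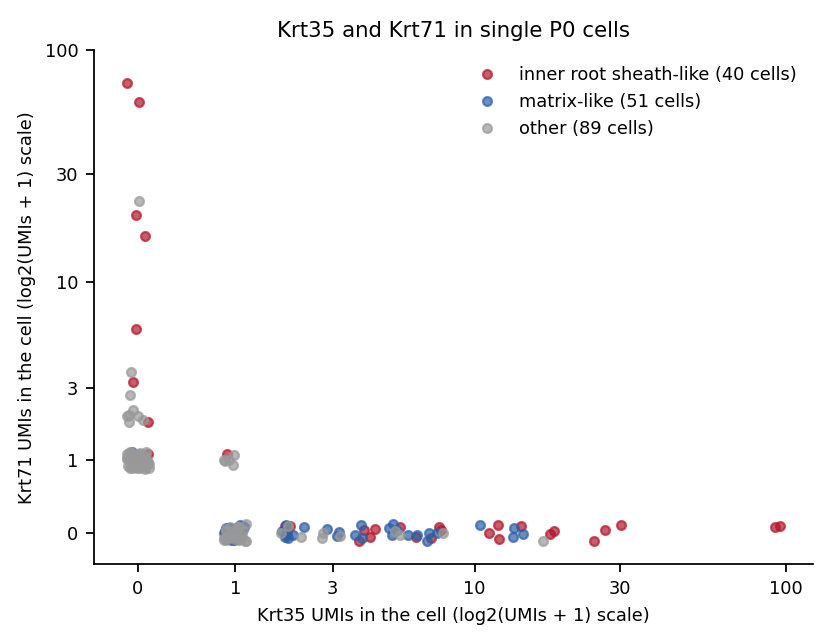
UMIs of *Krt35* (horizontal axis) and *Krt71* (vertical axis) in each P0 epithelial-like cell that held either gene, both on a log2(UMIs + 1) scale, with small random shifts to separate points and colours for IRS-like, matrix-like and other cells. Cells with many UMIs lie along one axis or the other, and the 6 cells with both genes hold 1 UMI of each.

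The groups of *Krt35* cells and *Krt32* cells compared next, and the divisions of cells by *Krt35* and *Krt71* above, were chosen after the values were seen. Cells with 2 or more *Krt35* UMIs held shaft regulators at higher levels and epidermal keratins at lower levels than the 1118 epithelial-like cells without a member. A gene was called when its CPM after adding 10 differed by at least 1 on the log2 scale (2-fold) and the interval left out 0, among genes with at least 50 UMIs. Of the 17 shaft and matrix regulators measured at that level, 11 were called higher and 0 lower, with a median log2 difference of 1.26 against -0.00 over all genes. Over the 10001 genes tested, 1.21% were called higher and 2.38% lower. These cells were 26 matrix-like, 23 IRS-like, 9 outer root sheath-like and 1 upper follicle-like. Some regulators are among the genes from which matrix-like cells were named, though not used to choose the *Krt35* cells. The reference was not limited to these sub-classes, and the part of this make-up was not tested. Among IRS-like cells, the 88 with neither *Krt35* nor *Krt71* held *Hoxc13* at 49.7, *Msx1* at 153, *Shh* at 60.3 and *Bmp4* at 55.6 CPM. These values lay below the intervals of the 23 *Krt35* cells there, while *Lef1*, *Msx2* and *Dlx3* lay within them. *Krt14* was at 711 CPM, against 399 CPM in those *Krt35* cells.

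Among the regulators, *Msx1*, a homeobox gene that responds to Bmp, was at 137 CPM against 13.8 CPM in the cells without a member, a log2 difference of 2.62 (interval 2.34 to 2.90). *Shh* was at 216 against 37.9 CPM (log2 2.24), *Bmp4* at 164 against 27.9 CPM (log2 2.20) and *Hoxc13* at 156 against 33.5 CPM (log2 1.93, interval 1.66 to 2.18). *Msx2* (1.91), *Dlx3* (1.16), *Ovol1* (1.34), *Foxq1* (1.34), *Cux1*, *Bmp2* and *Wnt5a* were also called higher. *Lef1*, the Wnt effector, had a log2 difference of 0.72 and was not called. *Foxn1*, a regulator of hair keratins known from the nude mouse, had 6 and 25 UMIs, too few to be tested.

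Over all genes tested, the highest log2 differences in the *Krt35* cells belonged to *Mt4* (3.91), *Hspa2*, a chaperone of the HSP70 family (3.30), *Odc1* (3.28), *Msx1*, *Lmo2*, a LIM-domain cofactor (2.42), *Sat1*, an enzyme of polyamine breakdown (2.41), *Krt28* (2.32), *Shh*, *Pvrl3* and *Bmp4*. *Mt4* gave 171 UMIs in 33 of the 59 cells, with 42 in the highest cell, against 53 UMIs in 35 of 1118 cells. *S100a3*, a calcium-binding protein of the hair cuticle, was the shaft structural gene called higher, out of 4 tested (log2 1.47). Among IRS-like cells it was at 73.6 CPM in the *Krt35* cells and 75.8 CPM in the *Krt71* cells, with overlapping intervals. As a description over the 1499 cells, which share 1 library, the genes most like *Krt35* in level were *Mt4* (Pearson r 0.59), *Odc1* (0.46), *Hspa2* (0.46), *Lmo2* (0.43) and *Dsc2*, a desmosomal cadherin (0.36), with *Hoxc13* at 0.30.

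*Krt35* cells held several epidermal and outer root sheath genes at lower levels, though not all. In the list of outer root sheath and stem cell genes, 4 of 7 were called lower, where 2.38% of all genes were, and 0 higher: *Krt14* fell by 2.86 on the log2 scale (638 against 4701 CPM), *Krt5* by 2.41, *Krt15* by 2.30 and *Sox9*, a regulator of the outer root sheath, by 1.17. *Lhx2* (log2 0.81) and *Tcf4* (0.74) lay on the higher side and *Krt17* at -0.15, none of them called. In the suprabasal list, 3 of 6 were called lower, with *Krt1* at 36.8 against 1263 CPM and *Krt10* at 102 against 1412 CPM. None of 9 proliferation genes was called in either direction; *Mki67* was at 58.2 against 47.9 CPM. In the IRS list *Krt28* and *Krt27* were called higher and *Krt71* lower, at 0 against 163 UMIs, where the log2 difference of -1.19 depends on the 10 added to each CPM.

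Cells grouped by *Krt35* level showed the same genes at different heights. In cells with 0, 1, 2 to 9 and 10 or more *Krt35* UMIs, *Hoxc13* was at 32, 50.1, 103 and 282 CPM. *Msx1* was at 10.2, 40.5, 48.8 and 346 CPM. Of the 86 *Msx1* UMIs in the highest group, 29 lay in 1 cell and 17 in another, and the cell with 103 *Krt35* UMIs held 0. *Krt14* was at 4647, 2671, 724 and 431 CPM in the same groups. *Shh* was at 37.4, 96.9, 217 and 213 CPM, so it did not differ between the upper groups, and *Mki67* stayed between 44.3 and 64.5 CPM with overlapping intervals. The groups held 1382, 58, 43 and 16 cells.

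Cells with 2 or more *Krt32* UMIs showed a different set of genes. Of the same 17 regulators, 1 (*Foxq1*, log2 1.44) was called higher and 2 were called lower, *Lef1* by 1.31 and *Shh* by 1.17 on the log2 scale; *Hoxc13* stood at 19.3 against 33.5 CPM (log2 -0.57). Over the 10104 genes tested, 0.782% were called higher and 0.762% lower. In the suprabasal list, *Krtdap*, a secreted protein of differentiating keratinocytes, and *Sbsn*, suprabasin, were called higher. *Cdkn1a*, the cell cycle inhibitor p21, was at 416 against 132 CPM (log2 1.59), and the cell cycle genes *Ccnb1* and *Mcm6* were called lower. These 54 cells were 19 suprabasal-like, 19 upper follicle-like, 9 basal-like, 6 IRS-like and 1 matrix-like.

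*Krt79*, a keratin of the follicle opening, led the *Krt32* cells at 2648 against 310 CPM (log2 3.06), with UMIs in 43 of the 54 cells. *Krt77*, a type II keratin of the epidermis and sweat ducts (2.34), *Alox12e*, an epidermal lipoxygenase (2.29), *Hspb1*, a small heat shock protein (2.25), and *Bbox1* (1.94) followed. *Krt71* was called higher in these cells (log2 1.46), but 64 of its 93 UMIs (68.8%) lay in 1 cell. Correlations with *Krt32* were weak and are given as a description: the genes whose levels went most with *Krt32* over the 1499 cells were *Dsg1a*, a desmoglein of the upper epidermis (r 0.32), *Cdkn1a* (0.32), *Rhov* (0.29), *Calm4* (0.27) and *Krtdap* (0.27). None of the 10 genes most like *Krt32* was among the 10 most like *Krt35*.

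**Figure D5:**
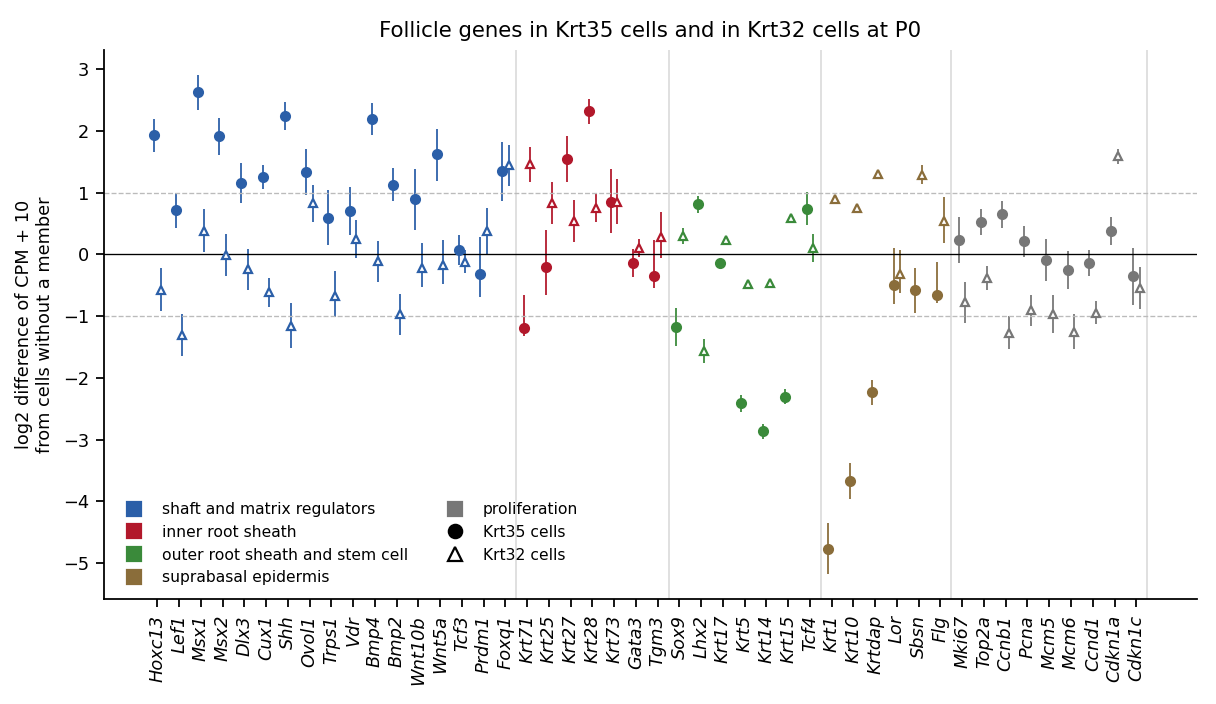
Difference (log2 of CPM + 10) of the genes of 5 lists in *Krt35* cells (59 cells, filled circles) and in *Krt32* cells (54 cells, open triangles) from the 1118 P0 epithelial-like cells without a member; bars are 95% counting intervals and dashed lines mark a 2-fold difference. *Hoxc13* lies at 1.93 and -0.57, *Shh* at 2.24 and -1.17, *Krt14* at -2.86 and -0.46, and *Krt1* at -4.77 and 0.89.

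Set directly against each other, the 49 cells with *Krt35* alone of the pair and the 47 with *Krt32* alone differed in the regulators by 9 of 13 called higher in the *Krt35* cells and 0 lower (over 4590 genes, 7.21% were called higher and 6.38% lower). *Shh* was at 242 against 1.97 CPM, *Msx1* at 134 against 1.31 CPM and *Hoxc13* at 168 against 9.19 CPM, while *Krt1* was at 27.1 against 2282 CPM. The groups differed in depth (medians of 10175 and 25773 UMIs), so cells were also chosen and summed after thinning to 3500 UMIs, with 62 and 53 cells. Of the 624 genes called with all UMIs, 591 kept their sign and 340 (54.5%) remained past 2-fold the same way. *Hoxc13* then had a log2 difference of 2.36 (interval 1.11 to 3.46), *Msx1* 3.51, *Shh* 2.05 and *Krt1* -6.81, whereas *Dlx3*, *Sox9*, *Ccnb1* and *Mcm6* were within 2-fold and *Krt71* had 0 UMIs in both groups and gave no value.

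Other measured quantities moved with these groups. The erythroid markers summed to 221 CPM in the *Krt35* cells and in the *Krt32* cells, against 2932 CPM in the cells without a member, with 2 of 6 markers at 0 in both. Melanocyte markers summed to 67.7 and 59.1 CPM against 26.1 CPM, with 3 and 1 of 6 at 0, and dermal markers to 1212 and 910 CPM against 1511 CPM, with none of 7 at 0. Endothelial markers summed to 51.0 and 13.6 CPM against 16.8 CPM, with 1 of 6 at 0 in both. Their part in the differences above was not tested. Cells with at least 3 UMIs over all members, which pool both kinds of cell, differed less from cells without a member: of 10215 genes, 49 (0.48%) were called higher and 30 (0.294%) lower, with *Krt79* (log2 2.60), *Mt4* (2.51), *Hspa2* (2.12) and *Odc1* (1.82) at the top. There 3 of 17 regulators were called higher, *Msx1*, *Shh* and *Foxq1*, and the count over all genes changed several-fold with the settings, from 7 to 236 higher. Globins and *Ccer2* were the lowest genes of this comparison.

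Keratin-associated proteins, the matrix in which hair keratin filaments are embedded, were scarce at P0 apart from *Krtap17-1*. Of the 7 genes measured, *Krtap17-1* gave 1968 UMIs in 449 P0 cells and each of the other 6 gave 17 or fewer at that stage. *Krtap17-1* did not follow the hair keratins: 52.1% of its UMIs in epithelial-like cells lay in outer root sheath-like cells, 22.9% in upper follicle-like and 20% in matrix-like cells, and its log2 difference in *Krt35* cells was 0.19. *Krtap3-3* gave 11 UMIs and *Krtap8-1* 17 UMIs at P0 and neither was found at the earlier stages.

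At E16.5 *Krt34* was found outside the follicle sub-clusters. All 36 *Krt34* UMIs of the epithelial-like cells lay in 4 cells of a sub-cluster of 88 cells led by *Cnfn*, *Psca* and *Krt6a* and named suprabasal-like. These cells held 25, 7, 3 and 1 *Krt34* UMIs beside 472, 358, 101 and 234 UMIs of *Krt4*, a keratin of wet epithelia and the periderm, and had 58958, 43526, 19910 and 22811 UMIs in all. *Krt32* gave 37 UMIs in 27 epithelial-like cells, and its largest part, 15 UMIs in 7 cells, lay in the same sub-cluster. The P0 suprabasal-like cells, where the share with *Krt32* was highest, were led by *Krt1*, *Krt10* and *Calm4*. The shared name is therefore not read as the same cell type. *Krt35*, *Krt33a*, *Krt31* and *Krt36* gave 4, 9, 2 and 2 UMIs, and *Krt82* and *Krt86* none. None of the 101 cells of a sub-cluster led by *Dkk4*, *Fgf20* and *Bmp2* held a UMI of any member, which allows a share of up to 2.97%.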

How the data were processed

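Single cells of mouse back skin were profiled with 10x Genomics 3' chemistry. The authors counted UMIs with Cell Ranger 2.2.0 on mm10 and deposited natural log values, ln(1 + UMIs per 10000), for 3 libraries in 1 table. Each deposited value above 0 gave a whole UMI within 0.001 (0 of 48197283 did not), so UMIs were recovered and summed. The lowest cell held 3453 UMIs.

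Cells of each library were clustered with scanpy 1.11.5 (2000 variable genes, 30 principal components, 15 neighbours, Leiden resolution 1). Hair keratins, keratin-associated proteins and the regulator, shaft structural, IRS and outer root sheath lists were left out of the variable genes. The suprabasal and proliferation lists and other keratins such as *Krt79* were not left out. Clusters were named from at least 3 markers above the 25th percentile of clusters, a reference chosen after clusters of an earlier analysis were seen. Doublets were called and kept; the caller marked none at E13.5 and so did not work there. Shares have exact binomial and UMI sums exact Poisson intervals, covering counting error only. With 1 library per stage no test was run.

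The members and gene lists were chosen with earlier results of these data known. Named genes are the members, *Krt71*, every gene of the lists, the 10 highest and 5 lowest of a comparison, and the 10 genes most like a keratin in level; leading genes of clusters and *Krt4* were named after their values were seen. Alternatives covered cell filters, doublets, thinning, UMI thresholds, the value added to each CPM, cell weights and the reference cells. The comparison of cells with at least 3 member UMIs was planned; those of *Krt35* cells, *Krt32* cells, *Krt35* levels and IRS-like cells were added after the data were seen. The comparison of cells with at least 3 member UMIs was tested on simulated data. There 89% of genes set 4-fold higher and 58% of genes set 4-fold lower were called, with 0 in the wrong direction. Lower genes were thus missed more often, and the counts of higher and lower genes are not alike.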

Additional observations from a re-analysis of the deposited data

How the results depend on the processing

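The share of cells with a member stayed highest at P0 after thinning, while sizes moved with depth and threshold; the causes of these moves were not tested. With a stricter minimum of genes per cell, 753 P0 epithelial-like cells remained instead of 1499. With 2 UMIs of a single gene required, the share of P0 epithelial-like cells with a member was 8.27% instead of 25.4%, the share of member cells with *Krt71* 2.42% instead of 5.25%, and the share with 2 or more members 8.87% instead of 19.4%. Thinned to 3500 UMIs, the share with a member was 11.3% at P0 and 1.05% at E16.5, the share with at least 3 member UMIs 1.47% instead of 6.47%, the share with *Krt71* 0%, and 4 of 8 members kept their place in the order. Genes called higher and lower in member cells, 49 and 30, became 7 and 5 with 1 member UMI required, 171 and 304 with 10 required, 155 and 260 with 1 added to each CPM, 81 and 64 with every cell weighted equally, 236 and 163 after thinning, and 186 and 98 against matrix-like cells without a member. Chosen after seeing the data, leaving out cells with *Krt35* gave 62 and 62, and leaving out cells with *Krt32* gave 90 and 248. Requiring 20 UMIs kept 49 and 30. Leaving out called doublets could not change these counts, because the 1 P0 epithelial-like cell called was in neither compared group. No paired analysis was possible because each stage had 1 library, and no replicate could be left out.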

Other observations

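Hair keratin UMIs were also found in cells not named epithelial-like. At E16.5, *Krt35* gave 7 UMIs in 7 of 180 pericyte-like cells (3.89%, interval 1.58 to 7.85) and 0 in 3293 dermal-like cells. At P0, 15 of 106 melanocyte-like cells (14.2%, median depth 10000 UMIs) held a member, 6 with *Krt32* and 4 with *Krt35*, and 8 held *Krt71*. In a dermal-like cluster of 91 P0 cells led by *Has3*, 14 cells (15.4%) held a member, against 52 of 2696 other dermal-like cells (1.93%). *Mycn* and *Lhx2*, leading genes of an epithelial-like cluster of P0, were also among the leading genes of this cluster. With the median of the clusters as the naming reference, 1590 P0 cells were epithelial-like instead of 1499. The dermal-like name of this cluster is therefore not secure. *Krt33b* gave 10 UMIs in 9 cells at E13.5, none of them epithelial-like, and 0 UMIs at E16.5.

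*Krtap13*, a keratin-associated protein gene, gave 192 UMIs in 55 cells at E16.5, of which 104 lay in 12 epithelial-like cells, and 0 UMIs at P0.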
